A study of Mus musculus with 6 samples.

Results

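The Msx and Dlx homeobox genes were followed on promoter arrays of DNA recovered with SMAD antibodies from mouse embryonic stem cells. Their probes were all non-control probes that the array annotation assigns, by gene name or by accession, to Msx1, Msx2 or Dlx1 to Dlx6. This rule gave 266 of 474380 probes, and 7 of the 8 genes had probes. There were 41 probes for Msx1, 39 for Msx2, 30 for Dlx1, 41 for Dlx2, 35 for Dlx3, 40 for Dlx4 and 40 for Dlx5, and Dlx6 had 0. The 7 genes stand among 17042 genes of the array annotation.

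The cells were of the R1 line, undifferentiated, grown without feeder cells in serum replacement medium with leukemia inhibitory factor, and they received no treatment. Antibodies raised against the linkers of human SMAD1 (called SMAD1/5), SMAD2 and SMAD4 were each used for 1 biological replicate, and each replicate was read on 2 arrays that carry different probes. Immunoprecipitated DNA was labelled with Cy5 (red) and hybridised against whole cell extract DNA, the input, labelled with Cy3 (green), with no dye swap. The titles and the design text name SMAD2 for the SMAD2 arrays, while the extraction text attached to those arrays names an anti-Smad1/5 antibody. No group has a replicate, so no p-value is given, and every SD below runs over probes of 1 array.

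Msx proteins are homeodomain transcription factors, known mainly as repressors, that act in limb buds, teeth, the skull and the neural crest. Dlx proteins are the vertebrate relatives of the fly Distal-less factor and lie in the genome as convergent pairs, Dlx1 with Dlx2, Dlx3 with Dlx4 and Dlx5 with Dlx6. Bone morphogenetic proteins (BMPs) act through SMAD1 and SMAD5, and Activin, Nodal and TGF-beta through SMAD2. SMAD4 joins both branches in the nucleus, where SMAD proteins bind CAGAC and GC-rich elements such as GGCGC. Msx1, Msx2, Dlx3 and Dlx5 are known BMP-responsive genes in differentiating tissues, and in undifferentiated embryonic stem cells Msx and Dlx genes are mostly silent.

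The 250 bases before the gene start are shown for the 4 members that the RefSeq promoter table held (GRCm38.p6), since the array probes lie around these starts. Each is written 5′ to 3′ on the gene's strand, and capitals mark GGCGC or its reverse GCGCC.
Msx1 (chr5:37824586-37824835, minus strand): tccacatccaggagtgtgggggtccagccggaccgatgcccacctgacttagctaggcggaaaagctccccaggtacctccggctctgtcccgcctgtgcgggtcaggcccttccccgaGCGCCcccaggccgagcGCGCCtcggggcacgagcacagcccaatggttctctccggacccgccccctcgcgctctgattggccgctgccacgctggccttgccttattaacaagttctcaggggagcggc
Msx2 (chr13:53472781-53473030, minus strand): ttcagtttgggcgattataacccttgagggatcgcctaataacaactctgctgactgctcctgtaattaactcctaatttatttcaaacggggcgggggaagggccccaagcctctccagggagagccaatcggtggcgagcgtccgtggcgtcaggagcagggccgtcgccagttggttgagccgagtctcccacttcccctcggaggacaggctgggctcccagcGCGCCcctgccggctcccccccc
Dlx1 (chr2:71529195-71529444, plus strand): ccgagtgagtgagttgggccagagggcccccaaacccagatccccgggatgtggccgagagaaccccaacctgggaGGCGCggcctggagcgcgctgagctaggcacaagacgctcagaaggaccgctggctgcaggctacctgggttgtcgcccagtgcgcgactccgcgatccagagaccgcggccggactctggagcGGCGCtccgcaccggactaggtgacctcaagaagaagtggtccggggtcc
Dlx2 (chr2:71546755-71547004, minus strand): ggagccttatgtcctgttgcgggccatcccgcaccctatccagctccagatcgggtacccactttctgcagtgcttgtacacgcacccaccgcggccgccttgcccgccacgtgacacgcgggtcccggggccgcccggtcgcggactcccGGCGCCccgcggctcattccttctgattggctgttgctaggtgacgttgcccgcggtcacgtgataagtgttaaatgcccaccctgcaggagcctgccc

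The letters CAGAC or its reverse GTCTG were in 0 of the 4 sequences, and 42.2% of 32851 mouse promoters of this length hold them. The palindrome of GTCT and AGAC was likewise in none of the 4, against 0.167% of all promoters. GGCGC or GCGCC occurred in all 4, with 2 matches in Msx1, 1 in Msx2, 2 in Dlx1 and 2 in Dlx2, while 32.0% of promoters hold it. The 2 matches in Dlx2 overlap within a single GGCGCC, a motif found in 9.59% of promoters. The 4 sequences are rich in G and C, from 61.6% to 68%, against a median of 52.4% over all promoters. A match of letters is a description and shows no binding.

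At single probes near the starts of Msx1, Msx2, Dlx1 and Dlx3 the ratios differed between genes and between antibodies. A value at a probe is the log2 ratio of immunoprecipitate over input, with the array's median probe at 0. Msx2 had ratios of 1.24 with SMAD1/5, 1.32 with SMAD2 and 0.45 with SMAD4 at the probe 187 bp before its start, and 1.43, 0.33 and 0.83 at the probe 24 bp before it. At the next probe, 232 bp inside the gene, the SMAD1/5 ratio was -5.26, the SMAD2 ratio -1.20 and the SMAD4 ratio -0.58. That probe opens a run of 4 low SMAD1/5 probes. On this run the SMAD1/5 input lay 3.90 ± 2.20 above the mean of the other inputs (SD over probes), and the immunoprecipitate differed by 0.19 ± 0.92. With SMAD1/5, 16.4% of all probes had a ratio of at most -2. Msx1 was below 0 with SMAD1/5 and SMAD4 at the probe 58 bp before its start, with -0.88 and -1.17, and SMAD2 stood at 0.39. Dlx1 had -3.36 with SMAD1/5, 0.24 with SMAD2 and 0.04 with SMAD4 at 13 bp before its start. Dlx3, which acts in skin, teeth and placenta, had ratios above 1 with all 3 antibodies on the probe at -261 bp, at 2.18 with SMAD1/5, 2.35 with SMAD2 and 1.45 with SMAD4. At the neighbouring probes, -491 and -116 bp, SMAD2 and SMAD4 lay between -0.26 and 0.40. SMAD1/5 averaged 1.37 ± 0.91 (SD over probes) over the 5 probes within 500 bp of the one at -491 bp. A ratio of at least 1 was found for 27.5% of all probes with SMAD1/5, 12.7% with SMAD2 and 16.5% with SMAD4.

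**Figure D1:**
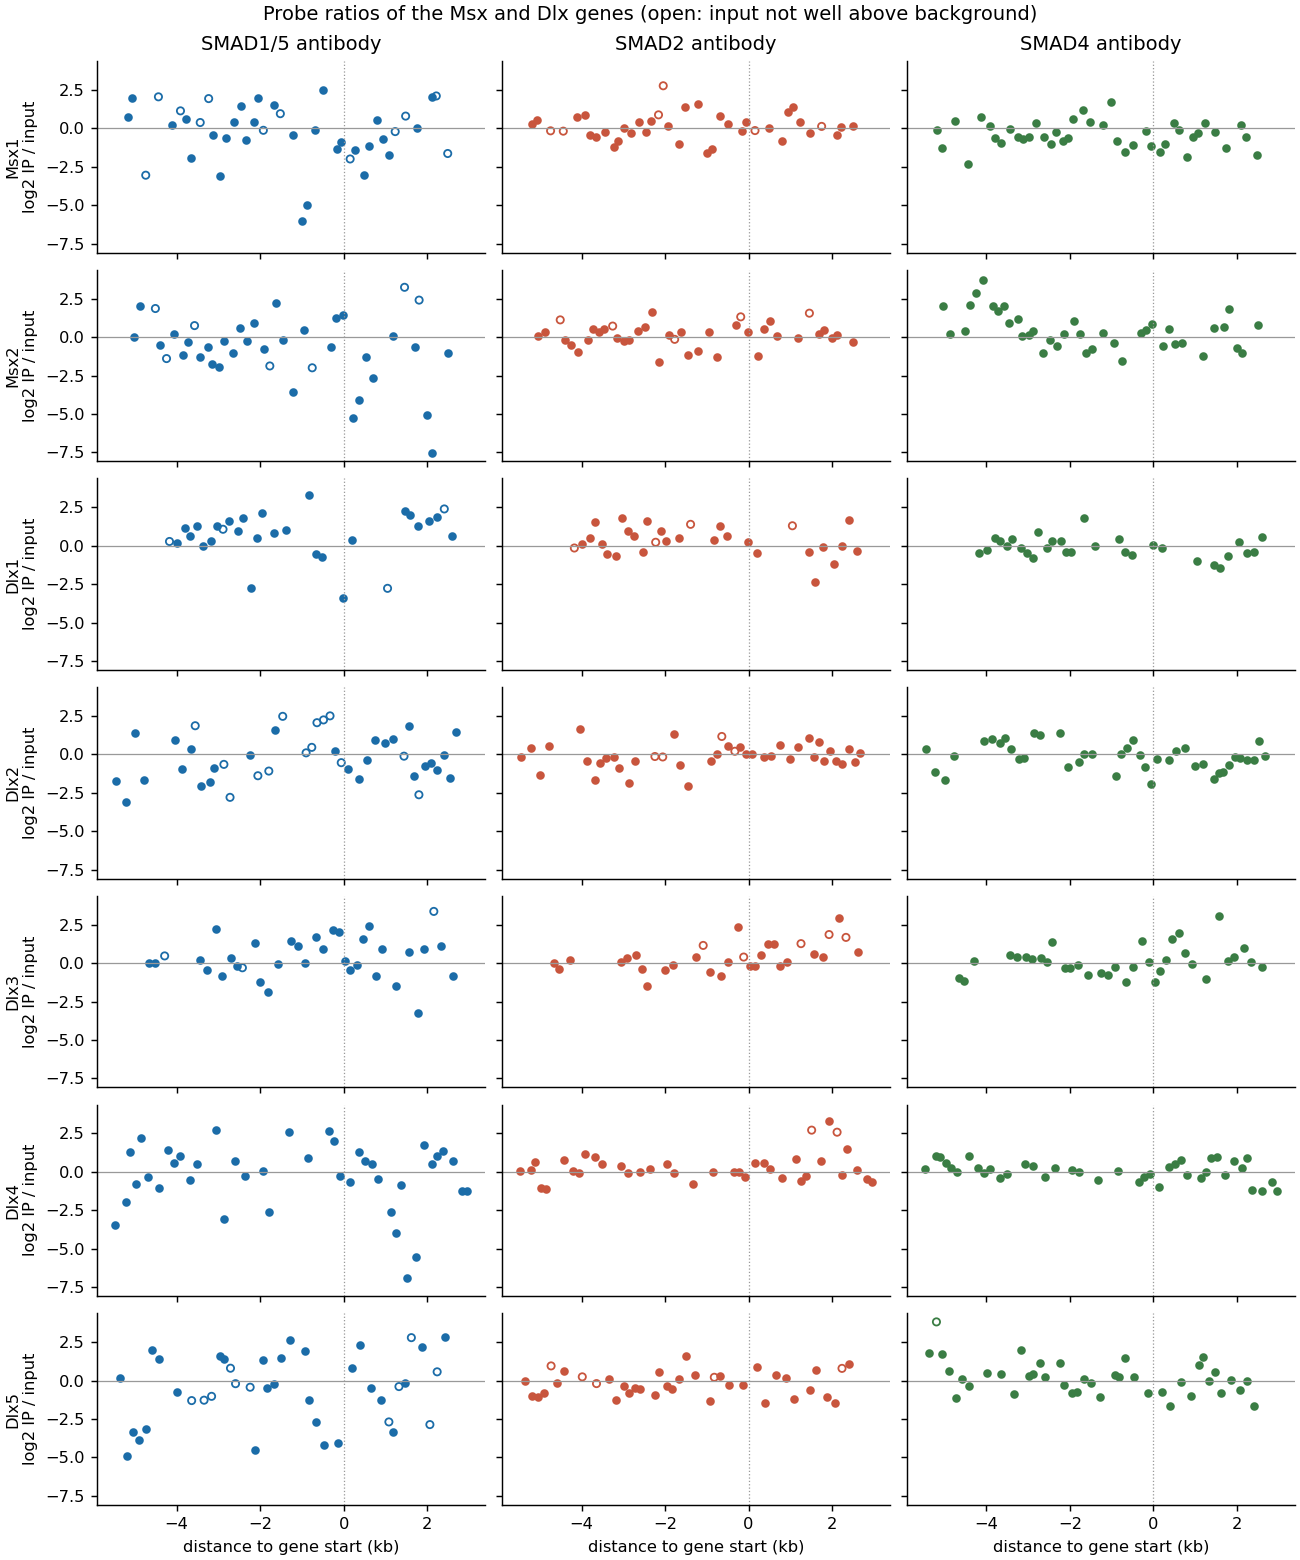
Log2 ratio of immunoprecipitate over input (vertical axis) for each probe by its distance to the gene start in kb (horizontal axis), with a row for each of the 7 genes and a column for each antibody. Open circles are probes whose input was not well above background. SMAD1/5 probes spread from -7.51 to 3.37, and the run of high SMAD4 probes upstream of Msx2 reaches 3.69.

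Over all their probes the 7 genes were close to the array median with each antibody. Their median log2 ratio was -0.01 with SMAD1/5 (SD 1.93 over 266 probes), 0.09 with SMAD2 (SD 0.87 over 256) and -0.03 with SMAD4 (SD 0.94 over 266). A log2 ratio of at least 1 was found for 28.9% of their probes with SMAD1/5, 14.1% with SMAD2 and 12.4% with SMAD4, against 27.5%, 12.7% and 16.5% of all probes. A ratio of at most -1 was found for 28.2%, 9.38% and 13.9% of their probes, against 31.0%, 13.5% and 10.1% of all probes. These shares lie near the background for each antibody. By gene, the median with SMAD1/5 was highest for Dlx1 at 1.01 and lowest for Msx2 at -0.62, with an SD between probes of 1.52 and 2.20. With SMAD2 the medians ran from -0.25 for Dlx5 to 0.35 for Dlx3, and with SMAD4 from -0.55 for Msx1 to 0.29 for Msx2, and every neighbouring pair in these orders differed by less than the SD between probes of either gene.

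Neighbouring probes were then averaged, since sheared fragments span more than a single probe. A window is the mean ratio of at least 3 probes within 500 bp of a probe, and its z is the distance from the array's median window in robust SDs. A window counts as enriched at a z of at least 4 and as low at a z of at most -4. None of the 7 genes had an enriched window with any antibody. Among all genes with windows, 0% were enriched with SMAD1/5, 0.0658% with SMAD2 and 2.49% with SMAD4. A peak z, the highest z of a gene, of at least 2 was reached by 1 of 7 genes with SMAD1/5, 2 of 7 with SMAD2 and 2 of 7 with SMAD4, while 5.94%, 18.4% and 40.1% of all genes reached it. The median peak z of the 7 genes was 1.37 with SMAD1/5, 1.43 with SMAD2 and 1.51 with SMAD4, against 1.26, 1.35 and 1.74 over all genes. With 7 genes a single gene moves these shares by more than their distance from the background.

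The height needed for a call differed between antibodies. The input was well above background at 215 of the 266 probes for SMAD1/5, at 235 for SMAD2 and at 265 for SMAD4, and no member probe was saturated. These were 80.8%, 88.3% and 99.6% of the members' probes, against 79.7%, 87.3% and 99.6% of all probes. A z of 4 stood for a log2 ratio of 4.61 and 4.17 on the 2 SMAD1/5 arrays, against 2.29 and 2.23 with SMAD2 and 2.30 and 2.29 with SMAD4. The threshold thus stood at 4.68-fold to 4.94-fold for SMAD2 and SMAD4, and far higher for SMAD1/5.

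**Figure D2:**
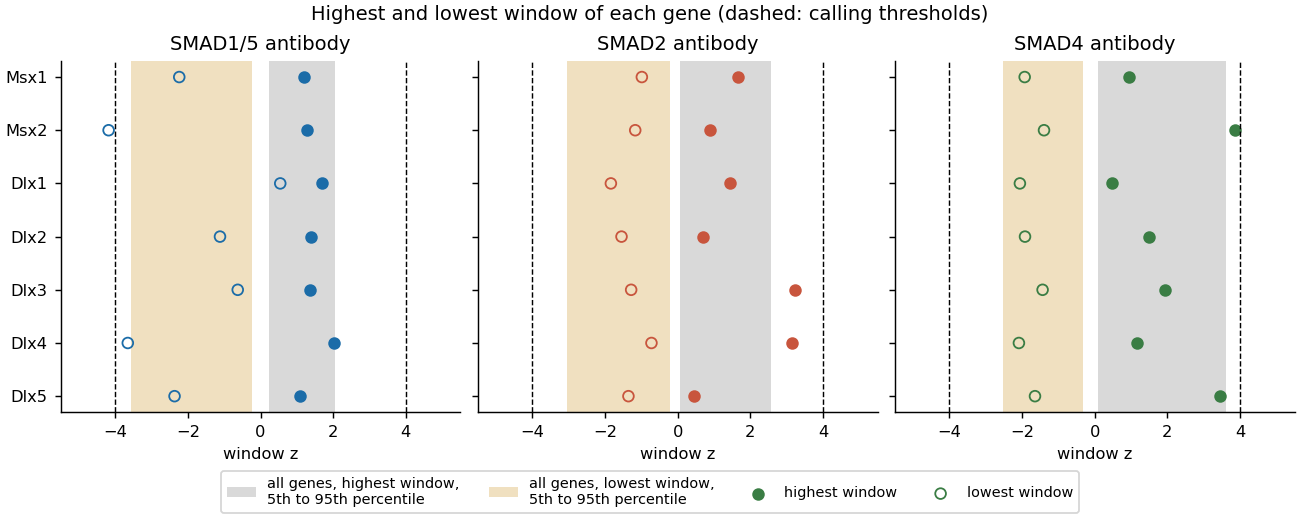
Highest (filled) and lowest (open) window z of each of the 7 genes (horizontal axis), in a panel for each antibody, with the range from the 5th to the 95th percentile of all genes shaded and the thresholds of 4 and -4 dashed. Msx2 lies at 3.87 with SMAD4, Dlx3 at 3.22 and Dlx4 at 3.15 with SMAD2, and Msx2 at -4.18 with SMAD1/5 is the only point past a threshold.

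Msx2, a regulator of skull and limb growth, had the highest window of the group with SMAD4. On array 2 the SMAD4 ratio was 2.08, 2.87, 3.69, 2.03, 1.67 and 2.03 at the probes -4393, -4243, -4076, -3851, -3732 and -3572 bp from its start. These 6 probes formed the longest run at or above 1 for SMAD4 in any of the 7 genes, equalled in length only by a SMAD1/5 run in Dlx1. On the same 6 probes no SMAD1/5 or SMAD2 ratio exceeded 0.75. The window centred at -4243 bp, at chr13:52512550-52513259 in the array's own coordinates, averaged 2.22 ± 1.22 (SD over 5 probes), which is 4.65-fold and a z of 3.87. The same window stood at a z of -0.12 with SMAD1/5 and -0.34 with SMAD2. In total 573 of 16727 genes had a higher SMAD4 peak z than Msx2.

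Both channels took part in this run. On the 6 probes the SMAD4 immunoprecipitate was higher by 1.06 ± 0.77 on the log2 scale than the other antibodies' immunoprecipitates averaged at the same probes, and the SMAD4 input lay at -1.71 ± 0.89 relative to the mean of the other inputs (SD over probes). Each of the 6 probes showed both. Taken antibody by antibody over the 5-probe window, the SMAD4 immunoprecipitate exceeded that of SMAD1/5 by 1.96 and that of SMAD2 by 0.37, while the SMAD4 input differed by -0.82 from SMAD1/5 and by -1.82 from SMAD2. Against SMAD2 the ratio therefore went mainly with the input, and against SMAD1/5 mainly with the immunoprecipitate. Whether the run reflects SMAD4 occupancy was not tested. The window had a positive z under each of 10 other ways of processing, from 2.24 with the 3 inputs averaged to 4.39 with windows of 250 bp to each side, where it passed the threshold with 3 probes.

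Dlx5, which drives bone and jaw development, also had its highest SMAD4 window far upstream. The SMAD4 ratio was 1.79, 3.81 and 1.76 at -5363, -5196 and -5054 bp from the start, and 0.60 at -4895 bp. The window at chr6:6839820-6840346 averaged 1.99 ± 1.33 (SD over 4 probes), 3.97-fold, with a z of 3.44. At the same 4 probes the SMAD1/5 ratio was 0.15, -4.89, -3.36 and -3.88, and the SMAD2 ratio lay between -1.10 and -0.04. The middle probes were thus high with SMAD4 and low with SMAD1/5, the probe at -5363 bp was high with SMAD4 alone, and the probe at -4895 bp was low with SMAD1/5 while its SMAD4 ratio stayed below 1.

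The inputs moved with this contrast. The SMAD4 input in that window lay at -6.07 ± 2.46 relative to the mean of the other inputs, and the SMAD4 immunoprecipitate lay at -2.04 ± 1.29 relative to the other immunoprecipitates, so the recovered DNA was also lower than on the other arrays. The input of the highest probe, at -5196 bp, was not well above background on the SMAD4 array and its value is a software surrogate. The SMAD1/5 input stood 6.24 ± 2.80 above the mean of the others over the 5 probes centred at -5196 bp. The SMAD4 window turned to a z of -3.01 when the 3 arrays' inputs were averaged and to -0.58 with normexp background correction, and it stood at 0.69 once the part of the ratio that follows the array's input was taken out. By probe, the SMAD4 immunoprecipitate of the window differed from the mean of the others by -3.44 to -0.63. What set the high SMAD4 ratio at this place was not tested.

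**Figure D3:**
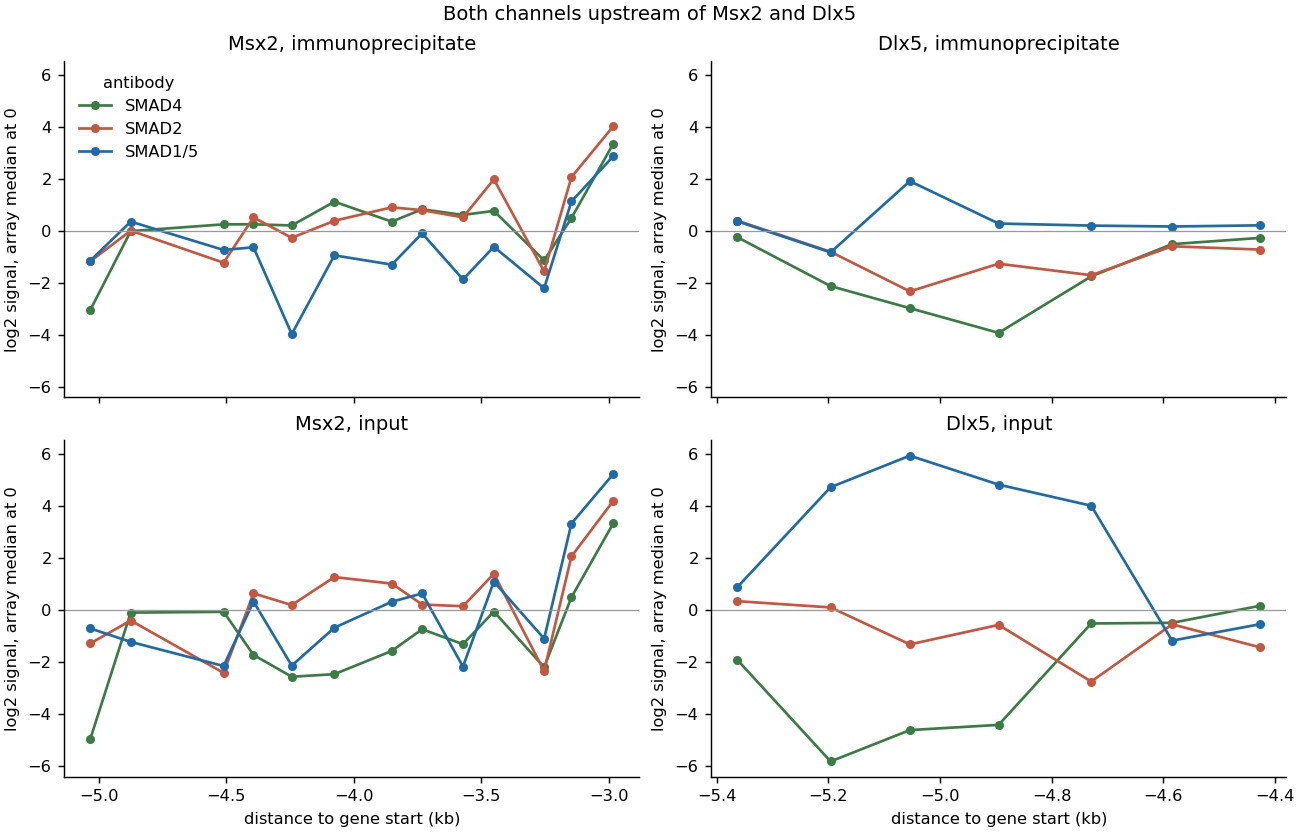
Log2 signal with the array's median at 0 (vertical axis) by distance to the gene start in kb (horizontal axis) for the immunoprecipitate (upper panels) and the input (lower panels), upstream of Msx2 (left) and Dlx5 (right), with a line for each antibody. From -5363 to -4895 bp of Dlx5 the SMAD4 input is the lowest and the SMAD1/5 input the highest of the 3, and near Msx2 the SMAD4 input is the lowest of the 3 at -4393 to -3851 bp.

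Dlx3 and Dlx4, neighbours on chromosome 11, carried the highest SMAD2 windows, both inside the gene. For Dlx3 the SMAD2 ratio was 1.86, 2.97, 1.68 and 0.69 at 1929, 2159, 2334 and 2611 bp past the start, and the window at chr11:95231077-95231806 averaged 1.80 ± 0.93 (SD over 4 probes) with a z of 3.22. For Dlx4 it was 2.71, 0.70, 3.32, 2.58, -0.21 and 1.47 at 1512, 1727, 1930, 2121, 2231 and 2370 bp, and the window at chr11:95252903-95253818 averaged 1.76 ± 1.35 (6 probes) with a z of 3.15. In the Dlx4 window 3 of the 6 probes were above 2, and the probe at 2231 bp was below 0. With SMAD2, 150 genes had a higher peak z than Dlx3 and 187 a higher one than Dlx4, of 16724.

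In both genes the SMAD2 immunoprecipitate was close to that of the other antibodies and the SMAD2 input was below theirs. The immunoprecipitate differed from the mean of the others by -0.31 ± 0.52 in the Dlx3 window and by 0.13 ± 0.29 in the Dlx4 window. The input differed by -1.73 ± 0.61 and by -2.50 ± 2.18, and 2 probes of each window had a SMAD2 input not well above background. With the 3 inputs averaged the z of these windows was 1.26 for Dlx3 and 0.23 for Dlx4, and with normexp correction it was 1.32 and 1.20. Antibody by antibody, the SMAD2 input of the Dlx4 window differed by -3.32 from SMAD1/5 and by -1.68 from SMAD4. That of the Dlx3 window differed by -1.14 from SMAD1/5 and by -2.31 from SMAD4. In the same windows SMAD4 averaged 0.31 over the Dlx3 probes and 0.24 over the Dlx4 probes, and SMAD1/5 averaged 1.14 and -1.30.

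With SMAD1/5 the members' windows farthest from 0 were low ones. The lowest window of Msx2, at chr13:52506201-52506753 with probes 1996, 2111 and 2494 bp past the start, held ratios of -5.06, -7.51 and -1.04 and averaged -4.54 ± 3.27 (3 probes), a z of -4.18. It was the only low window among the 7 genes, or 1 of 7, where 2.62% of all genes had one. With SMAD2 and SMAD4 the 7 genes had none, against 0.335% and 0.0478% of all genes. A second run of 4 probes from 232 to 692 bp inside Msx2 lay between -5.26 and -1.29. The lowest z was -3.65 for Dlx4, centred at 1377 bp, -2.36 for Dlx5, centred at -5196 bp, and -2.24 for Msx1, centred at -1004 bp. A lowest z of at most -2 was thus reached by 4 of 7 genes with SMAD1/5, against 32.2% of all genes, by 0 of 7 with SMAD2, against 30.0%, and by 2 of 7 with SMAD4, against 18.2%. Those 2 were Dlx4 at -2.08 and Dlx1 at -2.06.

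These lows went more with the input than with the immunoprecipitate. The mean immunoprecipitate was below the others in the Msx2 and Dlx4 windows and above them in the Dlx5 window. In the Msx2 window the SMAD1/5 input stood 3.71 ± 1.45 above the mean of the other inputs, with 3.51 against SMAD2 and 3.91 against SMAD4. The immunoprecipitate differed by -1.05 ± 1.85, from -3.15 to 0.35 by probe, with -1.44 against SMAD2 and -0.67 against SMAD4. In the Dlx4 window the input stood 4.47 ± 2.81 above the others, and the immunoprecipitate differed by -0.40 ± 0.30. In the Dlx5 window the input stood 6.24 ± 2.80 above the others, and the immunoprecipitate 2.06 ± 1.74 above them. Near Msx1 the probes at -1004 and -880 bp, with ratios of -5.99 and -5.01, had inputs 6.66 and 5.53 above the others and immunoprecipitates that differed by -0.03 and 0.94. The immunoprecipitate differed little there, by far less than the input.

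**Figure D4:**
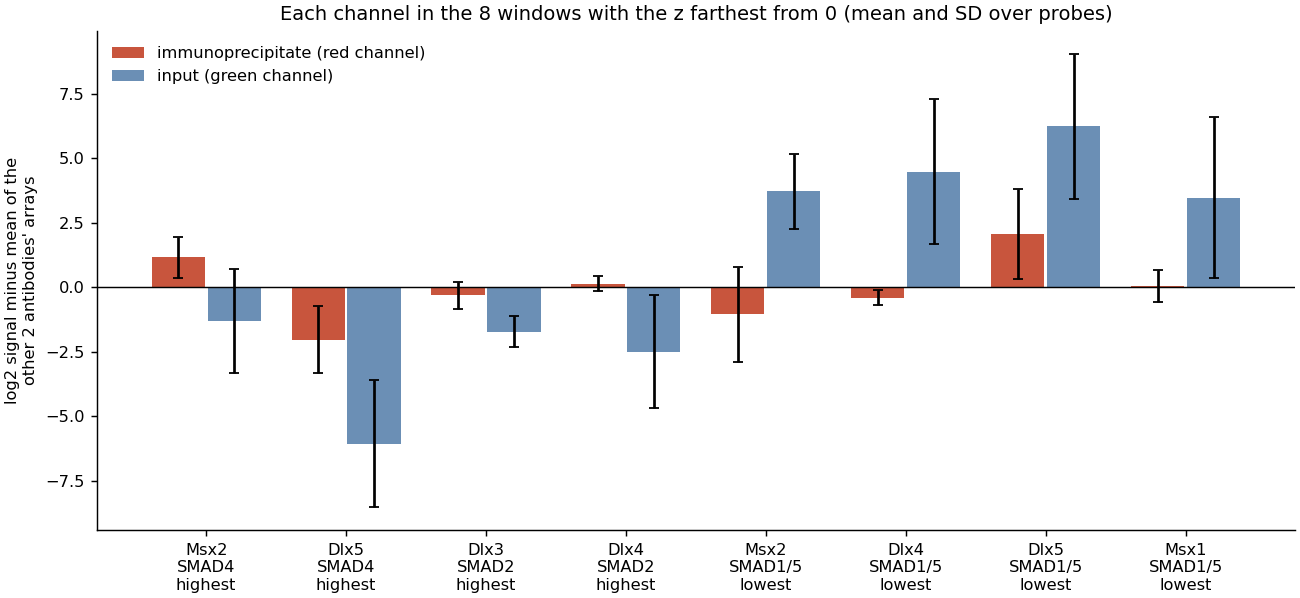
Mean log2 signal of the named antibody minus the mean of the other 2 antibodies' arrays at the same probes (vertical axis), for the immunoprecipitate (red bars) and the input (blue bars), in the 8 windows with the z farthest from 0. Error bars are SDs over the 3 to 6 probes of a window. The input bars reach from -6.07 to 6.24, and the immunoprecipitate bars from -2.04 to 2.06.

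Over all probes of the 7 genes the ratio also went more with the input than with the immunoprecipitate. The log2 ratio correlated with the input's difference from the other arrays at r = -0.71 for SMAD1/5, -0.58 for SMAD2 and -0.55 for SMAD4, and with the immunoprecipitate's difference at r = 0.35, -0.14 and 0.09. Each r is a description over 256 or 266 probes that share arrays and neighbouring sequence, and the ratio contains both channels. Over all probes of the arrays the correlations were -0.67, -0.55 and -0.52 with the input and 0.34, 0.03 and 0.08 with the immunoprecipitate. A SMAD1/5 ratio of at least 2 was found at 33 member probes, against 8.54% of all probes, and one of at most -2 at 37, against 16.4%. For SMAD2 these were 6 probes, against 1.69%, and 2 probes, against 2.31%, and for SMAD4 they were 8 probes, against 5.04%, and 1 probe, against 0.564%. Of the 8 high SMAD4 probes 6 lay in Msx2, and the 6 high SMAD2 probes lay in Dlx4 (3), Dlx3 (2) and Msx1 (1). Of the 37 member probes with a SMAD1/5 ratio of at most -2, 26 had an input that differed more than the immunoprecipitate in the direction of the ratio, or 70.3%, against 67.9% of all such probes. Of these 37 probes, 11 lay in Dlx5, 7 in Dlx4, 6 in Msx2, 5 in Msx1, 4 in Dlx2, 3 in Dlx1 and 1 in Dlx3. At SMAD1/5 ratios of at least 2 the input likewise differed more at 20 of 33 member probes, or 60.6%, against 48.9% of all such probes. For SMAD2 it did so at 6 of 6, against 89.9%, and for SMAD4 at 6 of 8, against 88.9%. At ratios of at most -2 it did so at 1 of 2 SMAD2 probes, against 71.7%, and at the 1 SMAD4 probe, against 45.5%.

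Dlx1 and Dlx2, which act together in forebrain interneurons, had peak z values of 1.69 and 1.39 with SMAD1/5, 1.43 and 0.70 with SMAD2, and 0.47 and 1.51 with SMAD4. With SMAD1/5 Dlx1 had 6 neighbouring probes between 1.26 and 2.40, from 1460 to 2410 bp inside the gene, and a window of 1.84 ± 0.43 (SD over 5 probes) at chr2:71374713-71375592 with a z of 1.69. On the 6 probes the SMAD1/5 immunoprecipitate lay 0.72 ± 0.46 above the others and the input at -1.06 ± 0.63. SMAD2 and SMAD4 averaged -0.40 and -0.53 in that window. With normexp correction the peak z of Dlx1 was 4.39, with no enriched call, and the share of all genes with a peak z of at least 2 was then 44.3%, against 5.94% as reported. Dlx2 had 3 SMAD1/5 probes of 2.07 to 2.51 from -640 to -327 bp, on which the immunoprecipitate lay 1.46 ± 0.62 above the mean of the others while the input differed from the mean of the others by 0.39 ± 0.06. Antibody by antibody over the 5-probe peak window, the SMAD1/5 immunoprecipitate exceeded that of SMAD2 by 1.45 and that of SMAD4 by 0.58, and the SMAD1/5 input differed by 1.05 from SMAD2 and by -0.35 from SMAD4. The inputs of all 5 probes in its peak window, centred at -764 bp, were not well above background on the SMAD1/5 array.

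Msx1 had no window near a threshold on the high side, with a peak z of 1.20 with SMAD1/5, 1.65 with SMAD2 and 0.95 with SMAD4. Its sister gene Msx2 had 1.27, 0.89 and 3.87. Within 1000 bp of the start the median SMAD4 ratio was -1.01 for Msx1 (SD 0.69 over 11 probes) and -0.36 for Msx2 (SD 0.73 over 9), against -0.05 over all genes. The median SMAD1/5 ratio there was -1.13 for Msx1 (SD 1.92) and -1.29 for Msx2 (SD 2.32), against -0.24 over all genes. These medians were below 0, but each except that of Msx1 with SMAD4 lay within 1 SD of it, and single probes of Msx2 near the start were above 0. The SMAD2 medians were 0.01 and 0.33.

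Dlx3 and Dlx4 lie on chromosome 11, where SMAD1/5 ratios stood above those on the chromosomes of the other members. The median SMAD1/5 ratio over 38352 probes of chromosome 11 was 0.28, and on chromosomes 2, 5, 6 and 13 it lay between -0.06 and 0.06. The single peak z of at least 2 with SMAD1/5, Dlx4 at 2.02, became 1.78 when each chromosome was centred on its own median.

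The ratios of different antibodies were little related over these genes, as over the whole arrays. Across member probes the log2 ratios correlated at r = 0.16 between SMAD1/5 and SMAD2 (Spearman's rho 0.18, 256 probes), at r = -0.02 between SMAD2 and SMAD4 (rho -0.01, 256 probes) and at r = -0.07 between SMAD1/5 and SMAD4 (rho -0.03, 266 probes). Over all probes r was 0.04, 0.06 and 0.03 for these pairs. Single channels were more alike, with r of 0.56, 0.76 and 0.53 for the immunoprecipitates and 0.44, 0.46 and 0.25 for the inputs of these pairs. The probes share sequence and the arrays share a design, so likeness of a channel includes what a probe's sequence sets.

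By position, the members' median SMAD4 ratio was highest farthest upstream. The bin from -5500 to -3000 bp holds the SMAD4 runs of Msx2 (-4393 to -3572 bp) and Dlx5 (-5363 to -5054 bp). The median SMAD4 ratio was 0.29 from -5500 to -3000 bp (72 probes), 0.02 from -3000 to -1000 bp (66), -0.19 within 1000 bp (67) and -0.24 from 1000 to 3000 bp (61), against 0.03, 0.00, -0.05 and 0.04 over all genes. The SD over probes in these bins was 0.72 to 1.10, larger than the differences. With SMAD1/5 the medians were 0.08, -0.07, -0.09 and -0.06, and with SMAD2 0.01, 0.02, 0.15 and 0.13.

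Related gene lists were set beside the 7 genes, against shares over all genes of 5.94% with SMAD1/5, 18.4% with SMAD2 and 40.1% with SMAD4 at a peak z of 2, and of 2.49% enriched with SMAD4. Of 24 other BMP-responsive genes, 2 reached a peak z of 2 with SMAD1/5, 8 with SMAD2 and 6 with SMAD4, and 1 was enriched, Grem1 with SMAD4 at 4.04, a secreted BMP antagonist. Of 33 measured Hox genes, 6, 5 and 9 reached it and 0 were enriched. Of 35 measured NK-like homeobox genes, the class that Msx and Dlx belong to, 2, 11 and 13 reached it, and Hmx1 at 4.41, Bsx at 4.38 and Noto at 4.12 were enriched with SMAD4. Of 20 measured partners and targets of Msx and Dlx genes, 1, 6 and 11 reached it, and Bmp2, a BMP ligand, was enriched with SMAD4 at 4.20. With SMAD1/5 the medians of the 4 lists were 1.39, 1.36, 1.29 and 1.48, beside 1.37 for the 7 genes and 1.26 for all genes. With SMAD2 they were 1.71, 1.54, 1.58 and 1.50, against 1.35 for all genes, and with SMAD4 they were 1.60, 1.68, 1.63 and 2.09, against 1.74 for all genes. With SMAD4 the first 3 lists lay below all genes. Members of 1 list can stand in another.

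The genes whose 3 peak z values lay nearest to those of Msx2, among 16629 genes, were Suclg2, Ccdc40 and Olfr853, at distances of 0.06, 0.09 and 0.13. Nearest to Dlx5 were the olfactory receptor genes Olfr65, Olfr907 and Olfr700, at 0.07, 0.09 and 0.09. The measure is the Euclidean distance over 3 values, 1 for each antibody.

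**Figure D5:**
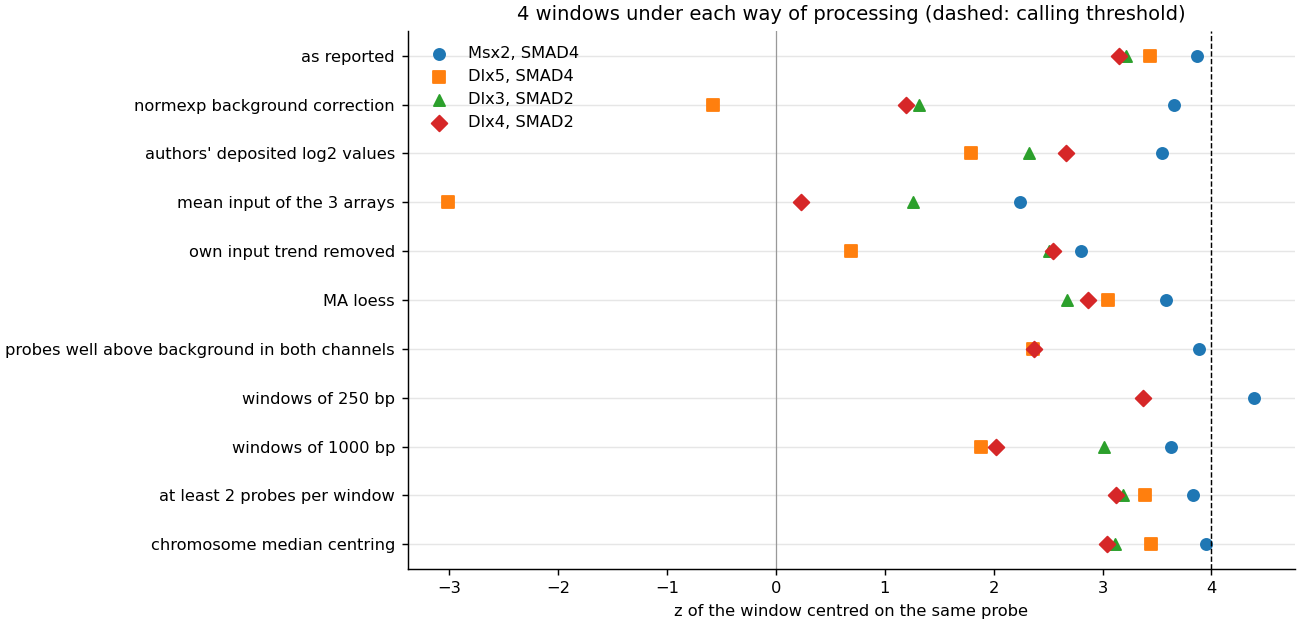
Window z (horizontal axis) of the SMAD4 windows of Msx2 and Dlx5 and of the SMAD2 windows of Dlx3 and Dlx4, centred on the same probe, as reported and under 10 other ways of processing (vertical axis). A symbol is missing where the window had no value. Msx2 stays between 2.24 and 4.39, while Dlx5 runs from -3.01 to 3.45.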

How the data were processed

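The labels' titles gave the antibody and array number of the 6 arrays. Per the file headers, the deposited processed intensity of each channel came from Agilent Feature Extraction, version 9.1.3.1 for SMAD1/5 and SMAD2 and version 9.5.3.1 with another protocol for SMAD4, so for SMAD4 the antibody and the extraction cannot be told apart. Other deposited columns hold 0 or 1 flags (well above background, saturated, outlier), set by that software per the file headers. The authors' deposited log2 values, for which the submitters' processing notes name limma without a version, correlated positively with log2 red over green on the same array (r from 0.74 to 0.95) and served as an alternative. Their column medians were 0.08, -0.01, 0.05, 0.04, -0.0047 and -0.0023, and their exact centring and scale stay unknown.

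Spots with an outlier flag were left out (0, 10 and 0 of the 266 probes for SMAD1/5, SMAD2 and SMAD4). Log2 processed red over green had its array median set to 0, without loess or quantile steps. Windows and their z used Python 3.11.15, with an SD taken from windows below the median, and a call also needed 2 probes past the 95th or 5th percentile. Normexp (offset 50) and loess alternatives used R 4.3.3 with limma 3.58.1. The window step was tested on simulated ratios, independent normal noise with each array's SD and windows raised by known heights. The simulation held no input channel and no likeness between neighbouring probes, so it cannot judge the windows reported here. Gene names were updated through RefSeq accessions of GRCm38.p6. Array coordinates are those of the annotation, of a build not given in the sources used here. Named genes outside the group were up to 3 of each list with the highest peak z and the 3 genes nearest to Msx2 and Dlx5. The members, lists, rules and alternatives were chosen with earlier results of these data known. Chromosome centring was added after seeing the data. The number of arrays limits the precision.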

Additional observations from a re-analysis of the deposited data

How the results depend on the processing

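The peak and lowest z of each gene and the counts of genes made from them were recomputed under 10 other ways of processing, 9 planned and 1 added after seeing the data, centring on each chromosome's median. The median ratios were recomputed under the 7 of these that change probe values or choose probes. Correlations, distance bins, probe runs and gene lists were computed as reported only. The number of Msx and Dlx genes with a SMAD1/5 peak z of at least 2 was 1 as reported, where 5.94% of all genes reached it. It was 3 with normexp correction, MA loess and the authors' deposited log2 values, where 44.3%, 16.3% and 15.1% of all genes did. It was 0 with the 3 inputs averaged (19.5% of all genes), the own input trend removed (10.9%), bright probes alone (3.13%) or windows of 250 bp (2.83%). It was also 0 with at least 2 probes per window (7.16%) or chromosome centring (6.09%). For SMAD2 it was 2 as reported, Dlx3 and Dlx4, where 18.4% of all genes reached it. It was 0 with normexp (13.6% of all genes) and 1 with the averaged input (10.7%). That 1 gene was Msx2 at 2.03, while Dlx3 stood at 1.71 and Dlx4 at 1.24. For SMAD4 it was 2 as reported, Msx2 and Dlx5, where 40.1% of all genes reached it. It was 1, Msx2, with the authors' values (30.6% of all genes), the own input trend removed (15.6%) or windows of 1000 bp (30.9%). The count stayed at 2 with the averaged input (11.96%) and with normexp (26.7%), but Dlx5 was no longer included. With the averaged input the genes were Dlx3 at 2.48 and Msx2 at 2.28, while Dlx5 stood at 0.72. With normexp they were Msx2 at 3.78 and Dlx2 at 2.18, while Dlx5 stood at 0.61. The number with an enriched window was 0 as reported and 1 for SMAD4 with windows of 250 bp (Msx2, z 4.39). With SMAD4, 389 of 16584 genes were enriched in windows of 250 bp and 416 of 16727 as reported. The number with a low SMAD1/5 window, 1 as reported, was 4 with normexp and 2 with the authors' values. Of all 16727 genes 2888 and 1298 had one there (439 as reported). The member count was 0 with the averaged input (33 of all genes), the own input trend removed (24) and windows of 250 bp (396) or 1000 bp (317). The median SMAD2 ratio of the member probes, 0.09 as reported, was -0.14 with normexp. The other counts and medians moved by at most 1.5 times or by less than the spread between genes. The causes of these changes were not tested. No paired analysis was possible because each antibody has 1 biological replicate. The SMAD1/5 input was well above background at 215 of the 266 member probes, or 80.8%, against 79.7% of all probes. SMAD1/5 ratios at the remaining member probes rest on a weak input. The lowest SMAD1/5 windows of Msx2, Dlx4, Dlx5 and Msx1 held no probe with a weak SMAD1/5 input. Whether weak input shaped other SMAD1/5 windows was not tested.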
